A study of Mus musculus with 18 samples.

Results

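Open chromatin of naive CD4 T cells from the mesenteric lymph nodes was compared with that of the same cells from the axillary lymph nodes, in both cases in the fraction with high signal of the Nr4a1-dsGFP reporter. The comparison rests on 3 mesenteric high and 3 axillary high libraries, chosen by the organ and reporter level in the sample titles, out of 18 in the series. The remaining groups were the low reporter fractions of both nodes and both fractions of the spleen. All libraries are ATAC-seq, in which a transposase cuts open DNA, and each is represented by the authors' list of peaks on mouse build mm10. The mice were C57BL6/J with genotype WT and no treatment, and each library came from 500000 cells. The labels number the libraries as biological replicates without saying which came from separate animals, so a p-value here reflects the scatter among these libraries alone, and that scatter may be technical. How the reporter was built is not stated in the labels.

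Nr4a1 encodes an orphan nuclear receptor that is switched on within a short time of T cell receptor (TCR) signalling, so a reporter of it marks naive T cells that receive stronger tonic signals from self peptides. Mesenteric nodes drain the gut, where dendritic cells make retinoic acid and TGF-beta, while axillary nodes drain skin. Naive T cells move between these nodes through the blood, guided by L-selectin and CCR7 on the way in and by S1PR1 on the way out.

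The cell type label was checked against marker genes. Of 14 genes of CD4 T cell identity, 12 to 14 had a peak nearest to them in each mesenteric high library and 11 in each axillary high library, and all of them had a peak in at least 1 library. Cd4, the co-receptor that defines these cells, had 3 regions, 1 of them with a peak in all 6 libraries. Of 10 B cell markers, 1 to 3 had a peak in mesenteric high libraries and 1 in axillary high libraries, and Ms4a1, Cd79a, Cd79b and Pax5 were without a peak in all 6. Hba-a1 and Hbb-bs, the globin genes of red cells, and Csf1r and Lyz2 of myeloid cells were also without one, as was Foxp3 of regulatory T cells.

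The promoters of 7 regions on which the results turn are shown first, from RefSeq (GRCm38.p6, 250 bases before to 50 after a gene start). Mvd, Knstrn and Tusc2 had stronger peaks in mesenteric high cells, and Idi1, Cblb, Zfp619 and Nr4a1 had weaker ones relative to the other regions of their libraries. Mvd lies at chr8:122443373-122443672 on the minus strand and Idi1 at chr13:8885356-8885655 on the plus strand, and their products act in succession in the mevalonate pathway of isoprenoid and sterol synthesis. Knstrn lies at chr2:118813753-118814052 on the plus strand, Tusc2 at chr9:107563005-107563304 on the plus strand and Cblb at chr16:52031299-52031598 on the plus strand. Zfp619 lies at chr7:39517516-39517815 on the plus strand, and the Nr4a1 promoter shown, which is inside the gene, at chr15:101266596-101266895 on the plus strand. Capitals mark the CCAAT box (CCAAT, or ATTGG where it is on the opposite strand).
Mvd: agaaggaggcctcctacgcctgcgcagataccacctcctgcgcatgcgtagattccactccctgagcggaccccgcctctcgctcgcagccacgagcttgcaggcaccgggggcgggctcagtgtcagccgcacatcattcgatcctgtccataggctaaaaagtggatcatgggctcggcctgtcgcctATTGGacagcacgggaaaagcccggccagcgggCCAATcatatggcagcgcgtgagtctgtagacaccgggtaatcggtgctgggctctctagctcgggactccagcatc
Knstrn: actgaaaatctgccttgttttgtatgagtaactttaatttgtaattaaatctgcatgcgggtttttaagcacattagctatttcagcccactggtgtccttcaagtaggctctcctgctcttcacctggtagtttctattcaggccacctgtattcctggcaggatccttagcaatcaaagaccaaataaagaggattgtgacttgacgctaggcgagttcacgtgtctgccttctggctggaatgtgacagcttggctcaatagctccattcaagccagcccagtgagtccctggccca
Tusc2: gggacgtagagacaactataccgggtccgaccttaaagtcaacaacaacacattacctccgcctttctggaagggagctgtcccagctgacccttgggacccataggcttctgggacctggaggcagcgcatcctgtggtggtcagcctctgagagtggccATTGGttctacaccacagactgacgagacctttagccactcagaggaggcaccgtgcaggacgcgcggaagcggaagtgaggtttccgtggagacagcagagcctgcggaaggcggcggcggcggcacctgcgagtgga
Idi1: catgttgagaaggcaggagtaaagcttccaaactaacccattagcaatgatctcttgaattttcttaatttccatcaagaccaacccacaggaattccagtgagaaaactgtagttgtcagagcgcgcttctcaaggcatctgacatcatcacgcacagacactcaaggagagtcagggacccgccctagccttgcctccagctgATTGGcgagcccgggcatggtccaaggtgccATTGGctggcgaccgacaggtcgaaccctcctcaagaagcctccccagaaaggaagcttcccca
Cblb: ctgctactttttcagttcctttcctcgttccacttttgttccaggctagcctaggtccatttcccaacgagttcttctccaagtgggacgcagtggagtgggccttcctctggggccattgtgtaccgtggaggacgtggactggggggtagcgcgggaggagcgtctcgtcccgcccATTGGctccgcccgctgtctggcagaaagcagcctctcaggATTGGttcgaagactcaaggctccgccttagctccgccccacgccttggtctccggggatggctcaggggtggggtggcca
Zfp619: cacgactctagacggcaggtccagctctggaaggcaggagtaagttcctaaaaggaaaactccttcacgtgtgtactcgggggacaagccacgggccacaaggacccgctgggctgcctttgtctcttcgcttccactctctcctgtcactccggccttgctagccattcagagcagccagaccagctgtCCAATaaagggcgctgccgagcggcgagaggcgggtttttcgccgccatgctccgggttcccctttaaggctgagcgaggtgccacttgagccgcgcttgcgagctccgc
Nr4a1: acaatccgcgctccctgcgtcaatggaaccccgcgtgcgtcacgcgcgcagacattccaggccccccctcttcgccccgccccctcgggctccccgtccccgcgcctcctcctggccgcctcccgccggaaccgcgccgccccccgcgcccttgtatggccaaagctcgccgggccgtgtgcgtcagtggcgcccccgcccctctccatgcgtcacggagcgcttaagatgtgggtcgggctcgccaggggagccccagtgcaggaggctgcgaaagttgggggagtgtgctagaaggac
The CCAAT box was found in 2 copies in the Mvd, Idi1 and Cblb windows, in 1 copy in those of Tusc2 and Zfp619, and not in those of Knstrn and Nr4a1. On either strand it was present in 37.4% of the 32851 promoter windows of the table and in 42.7% of the 5928 that overlapped a region with a peak in all 6 libraries. Among the regions called below by −log10 p, it was present in 6 of 8 promoter windows of those higher in mesenteric high cells and in 10 of 21 of those lower. These counts are a description of the windows.

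Mesenteric high libraries held more peaks than axillary high libraries, and a smaller part of them lay near gene ends. Peak numbers were 22885, 23129 and 23115 in mesenteric high libraries, against 15695, 15898 and 14778 in axillary high libraries. The means were 23043 ± 137 and 15457 ± 597 (SD, n = 3 each), a difference of 7586, and the groups did not overlap (exact permutation test, two-sided, p = 0.1, the smallest that 3 against 3 allows). Of the peak summits, 39.1% ± 0.237 in mesenteric high libraries and 47.9% ± 0.845 in axillary high libraries lay within 1000 bp of an end of a protein-coding gene (SD, n = 3 each, exact permutation p = 0.1).

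The mesenteric high libraries were also the deeper ones. Background coverage, recovered from the peak values as a relative depth, was 16.5, 16.6 and 16.6 reads per 10 kb in mesenteric high libraries, against 9.6, 10.2 and 9.85 in axillary high libraries. A fragment estimate was taken from the width of the narrowest peak in each list, since the sources do not give the caller's own. It was 163 bp in each mesenteric high library, against 226, 176 and 236 bp in axillary high libraries. The background coverage above was scaled by this estimate. The recovered reads of the called peaks were also thinned to the depth of the shallowest of the 6 libraries, named equal depth below. After this, 20010 ± 87.1 peaks remained in mesenteric high libraries, against 15424 ± 575 in axillary high libraries, a difference of 4586. The thinning acted only on peaks already called in the full lists and left the fragment estimates unequal. It is therefore not a new call of peaks at matched depth. Axillary high library 2, the nearest to the mesenteric libraries in fragment estimate, had 7145 peaks fewer than their mean. When each list was shortened to its 14778 strongest peaks, the share near gene ends turned round, to 49.7% ± 0.25 in mesenteric high libraries against 48.8% ± 0.229 in axillary high libraries.

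**Figure D1:**
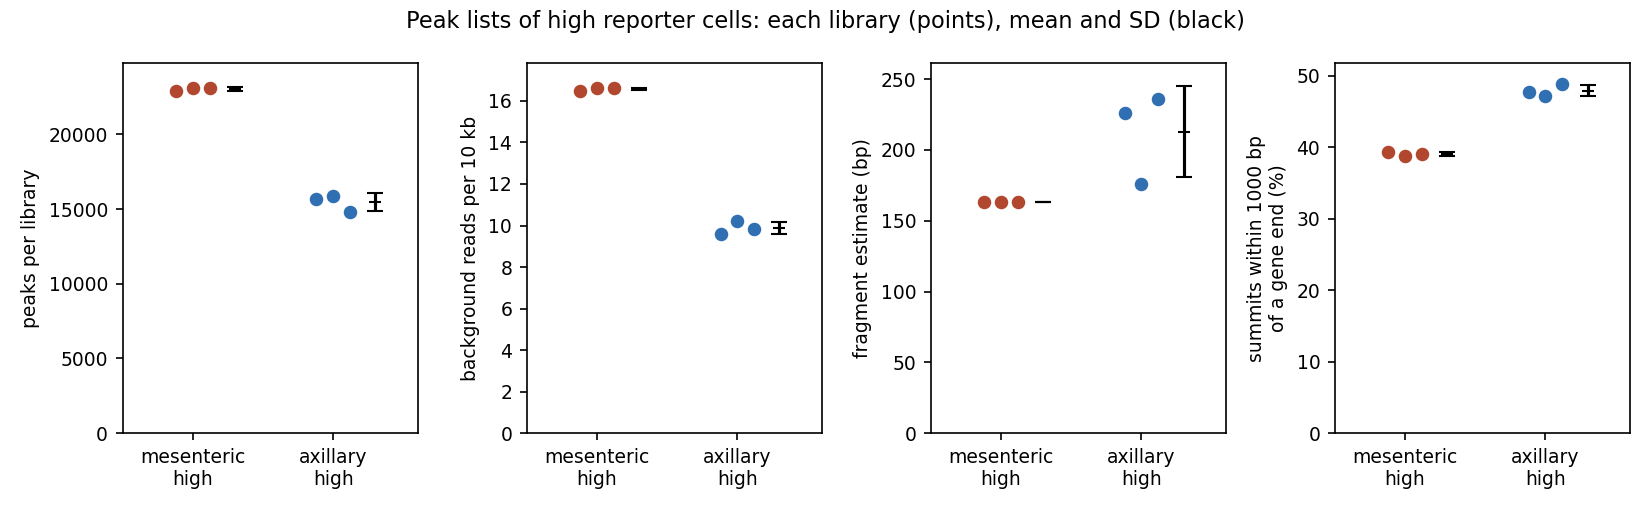
Peaks, background reads per 10 kb, fragment estimate in bp and the percentage of summits within 1000 bp of a gene end are plotted for each high reporter library (points, mesenteric left and axillary right) with the mean and SD in black. The mesenteric libraries sit at 22885 to 23129 peaks and 16.5 to 16.6 reads per 10 kb, above all axillary libraries in both panels.

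The first question is which places had a peak in all libraries of an organ and in none of the other. Peaks of the 18 libraries merged into 33115 regions, of which 29385 had a peak in at least 1 of these 6 libraries and 11150 in all 6. As deposited, 1623 regions (5.52%) had a peak in 3 of 3 mesenteric high and 0 of 3 axillary high libraries, and 3 regions (0.0102%) the reverse. These 1623 regions were weaker and less often near gene ends than the shared ones. Their median fold was 6.64, against 9.66 in the 11150 shared regions, and 21.3% of them, against 57% of the shared ones, lay within 1000 bp of a gene end.

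At equal list length the counts of both directions were close. With the 14778 strongest peaks of each library, 166 of 21547 regions (0.77%) had a peak in all mesenteric high and no axillary high libraries, and 137 (0.636%) the reverse. Of the 1623 regions, 134 were also among the 166, and all 3 of the axillary regions were also among the 137. Of the 137, 83 had a mesenteric peak in all 3 full lists, below the rank kept. At equal depth the counts were 786 and 19. Leaving out a library, which leaves 2 in its group to agree, moved the counts most for mesenteric high libraries 1 and 3, to 2500 and 2449, and took the axillary count to 8 to 25. In bulk libraries, fewer cells with a region open and less opening per cell cannot be told apart.

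**Figure D2:**
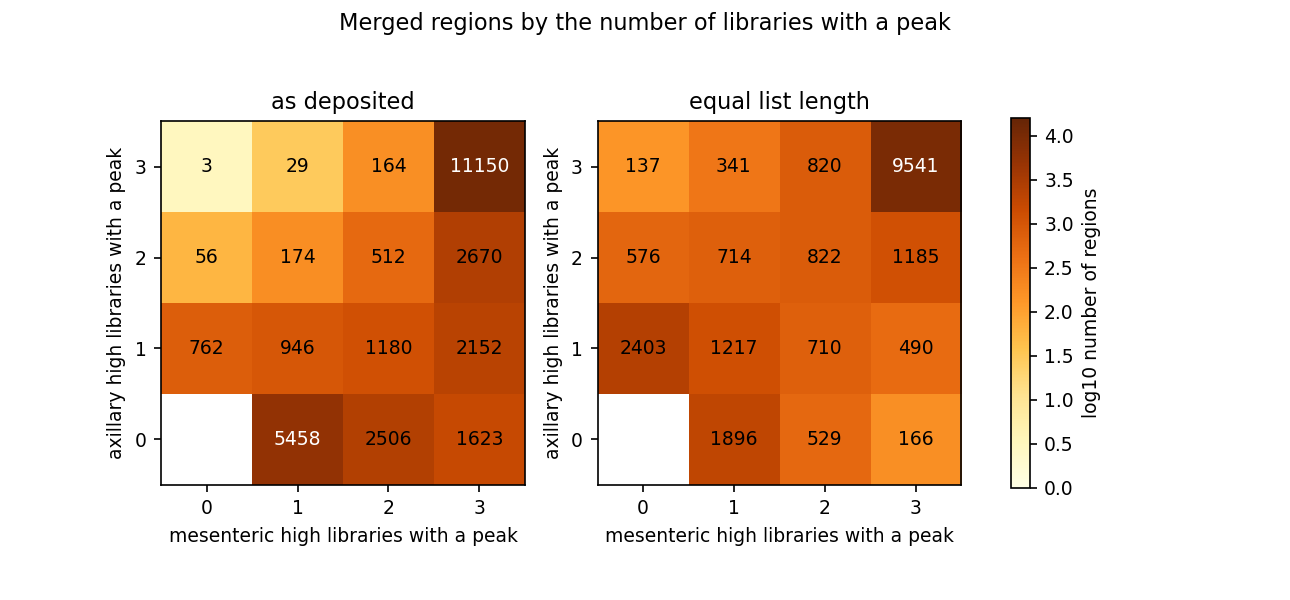
Each square counts the merged regions with a peak in the given number of mesenteric high (horizontal) and axillary high (vertical) libraries, on a log10 colour scale, with lists as deposited on the left and at equal length on the right. The corner squares of 1623 and 3 regions as deposited become 166 and 137 at equal length.

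Foxp1, Zmiz1, Dtx1, Socs3, Wipf1, Rora and Stk4 held 7 of the 10 strongest regions that all mesenteric high libraries had and all axillary high libraries lacked in both ways of counting. In Foxp1, a transcription factor that keeps naive T cells quiescent, the fold over background was 9.3, 12 and 13.6 in mesenteric high libraries, and no axillary high library had a peak (chr6:99420657-99421011, within the gene). In Zmiz1, a co-activator of Notch1, it was 10.8, 8.1 and 12.2 in mesenteric high libraries, again with no axillary high peak (chr14:25527254-25527741, within the gene). In Dtx1, a Notch target linked to T cell anergy, the mesenteric high folds were 8.8, 9.66 and 10.3 (chr5:120696914-120697319, within the gene). All 3 regions were thus measured in every mesenteric high library and in none of the axillary high libraries.

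The promoter window of Socs3, an inhibitor of cytokine receptor signalling, had folds of 7.8, 6.74 and 7.45 in mesenteric high libraries and no peak in axillary high libraries (chr11:117968986-117969595). Wipf1, a partner of the Wiskott-Aldrich syndrome protein, had 10.2, 10.6 and 8.27, and Rora, a nuclear receptor of T helper 17 and innate lymphoid cells, had 10.8, 8.74 and 10.2 in mesenteric high libraries. Stk4, the Hippo kinase that naive T cells need for survival and migration, had 8.82, 7.52 and 8.36. None of these had an axillary high peak. The remaining 3 regions lay at H3c7, a histone gene (mean mesenteric high fold 9.86 ± 0.705), at Zfp7, a zinc finger gene (11.9 ± 0.96), and nearest to Olfr523, an olfactory receptor gene (11.8 ± 2.69; SD, n = 3 each).

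Low reporter cells did not always repeat this presence. The Stk4 and Zfp7 regions had a peak in 3 of 3 mesenteric low and also 3 of 3 axillary low libraries. The Zmiz1 region had a peak in 1 mesenteric low and 0 axillary low libraries, and the Foxp1 region in 1 of each. Socs3, Dtx1 and H3c7 had peaks in 3 mesenteric low libraries and 1 axillary low library.

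The 3 axillary regions were weak. The promoter of Elk3, an ETS family factor of the ternary complex group, had folds of 5.12, 6.5 and 4.78 in axillary high libraries and no peak in mesenteric high libraries (chr10:93310769-93311265). This region had a peak in 3 of 3 mesenteric low libraries. The others lay in Gigyf2, nearest to the end of Kcnj13, a potassium channel gene, and 23034 bp outside Stxbp4, with axillary high folds of 5.08 to 6.3 and of 5.51 to 6.47. Among the 137 regions at equal length, the strongest in axillary high libraries, named after their values were seen, included Alpk1, Atp10a and Mrvi1, which had a peak in all 3 full mesenteric lists, and D16Ertd472e, which had a peak in 2 of them.

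Brakes on TCR signalling were the gene list with the most such regions among the lists of 30 regions or more. Of 222 regions nearest to 49 such genes, 23 (10.4%) had a peak in all mesenteric high and no axillary high libraries, against 5.52% of all regions, and 0 the reverse. They lay at Cblb, Cd5, Cish, Dgkd, Dgkz, Nedd4l, Nfkbia, Pag1, Pdcd1, Ptpn22, Rasa2, Rasa3, Sla, Sla2, Socs3 and Ubash3b, which encode ubiquitin ligases, diacylglycerol kinases, phosphatases, adaptors and inhibitory receptors. At equal length 3 of them were left, at Pdcd1, Rasa3 and Socs3. The region 1235 bp outside Pdcd1, the gene of the inhibitory receptor PD-1, had folds of 9.12, 8.29 and 7.24 in mesenteric high libraries, and none of the axillary high, mesenteric low or axillary low libraries had a peak there.

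Proximal TCR signalling (32 genes) had 13 such regions of 182 (7.14%). At equal length 3 were left, at the promoter of Cd3g, a chain of the TCR complex, 24743 bp outside Kcna3, the potassium channel that sustains calcium entry, and 32395 bp outside Cd28, the costimulatory receptor. The Cd3g promoter had folds of 7.24, 8.8 and 9.5 in mesenteric high libraries and no peak in axillary high libraries. Naive quiescence and survival had 20 of 236 (8.47%), at genes such as Bcl2, Bcl2l11, Ets1, Foxo3, Foxp1, Klf13, Myb, Satb1 and Tob1. TCR induced genes (10 of 218, 4.59%), lymph node homing and egress (3 of 107, 2.8%) and interferon response genes (1 of 51, 1.96%) were at or under the share of all regions. At equal length each gene list had 0 to 3 such regions, a count that is not scaled by the size of the list, beside 0.77% of all regions. The housekeeping list had 1 of 34 (2.94%) as deposited, in Actb, and this region was also left at equal length.

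Markers of other cell types had few regions, and in part of them the same presence. As deposited, 1 of 4 erythroid regions (25%), 2 of 9 stromal and endothelial regions (22.2%), 3 of 18 myeloid regions (16.7%) and 2 of 18 CD8 T cell regions (11.1%) had a peak in all mesenteric high and no axillary high libraries, shares above the 5.52% of all regions and the 10.4% of TCR brakes. The 3 B cell, 7 dendritic and 10 natural killer and innate lymphoid regions had 0, and at equal length all 7 marker lists had 0. Myeloid regions with a peak numbered 9 to 14 in mesenteric high libraries, against 1 to 3 in axillary high libraries, and CD8 T cell regions 13 to 15, against 3 to 8. The part of other cells in the results was not tested.

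**Figure D3:**
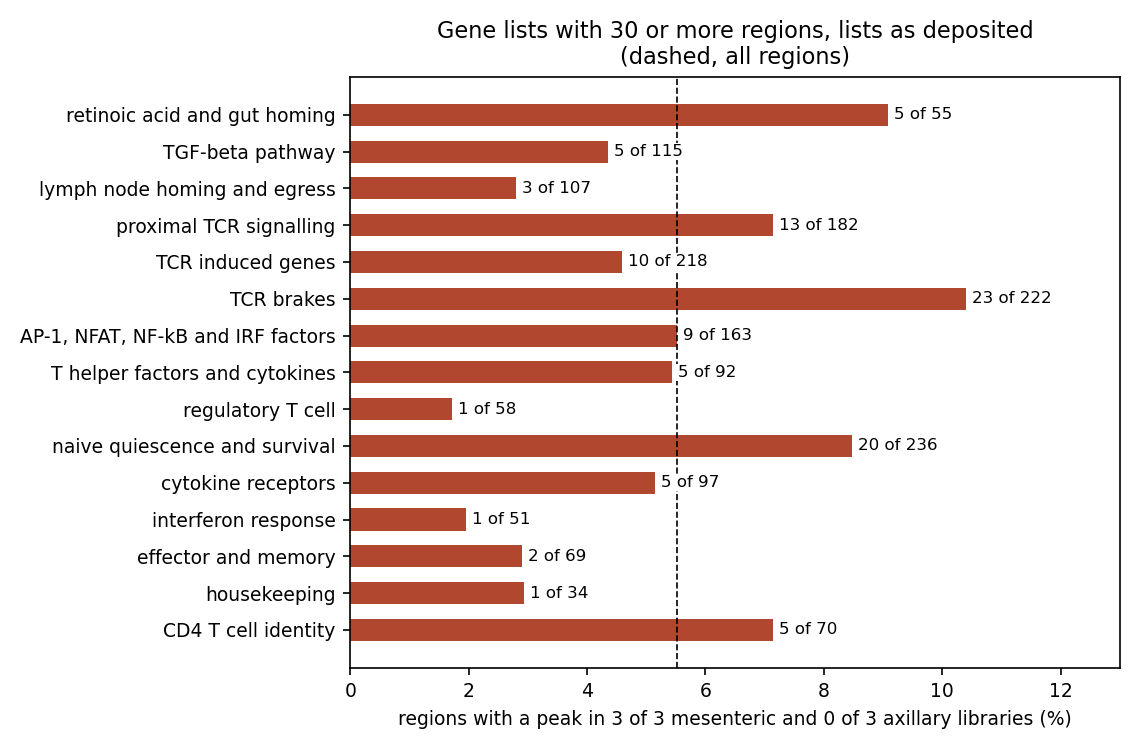
Bars give, for each gene list with at least 30 regions, the percentage with a peak in 3 of 3 mesenteric high and 0 of 3 axillary high libraries as deposited, with the counts beside them. The dashed line is the 5.52% of all regions, and TCR brakes reach 10.4%.

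The second question is how strong the shared peaks were. Over the 11150 regions with a peak in all 6 libraries, the deposited fold was higher in mesenteric high libraries by a median of 0.27 on the log2 scale and the deposited −log10 p by 0.55, so each library was centred on its median and differences below are relative to the other regions. Centred in this way, 0 regions (0%) were higher and 0 (0%) lower in fold (limma with Benjamini-Hochberg adjustment, smallest adjusted p = 0.059), with 756 higher and 867 lower at an unadjusted p under 0.05. Without centring, 2497 (22.4%) were higher and 4 (0.0359%) lower. At equal list length, with 9541 regions tested, 26 (0.273%) were higher and 8 (0.0838%) lower. Leaving out axillary high library 2 from the full lists gave 46 higher and 19 lower, leaving out axillary high library 1 gave 3 and 0, and leaving out any of the other 4 libraries gave 0.

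Regions of higher fold in mesenteric high cells at equal list length included Mvd, Knstrn, Aph1a and Tusc2, and 17 of the 26 overlapped a promoter window. The share was 53.2% in the 11150 regions tested on the full lists, and it was not computed for the 9541 regions tested at equal list length. The Mvd promoter, which belongs to the mevalonate decarboxylase gene, had folds of 16.7, 18.3 and 19 in mesenteric high libraries, against 8.93, 12 and 9.37 in axillary high libraries. The groups did not overlap, with mesenteric high values above, as in 38.6% of all tested regions for uncentred fold. The centred log2 difference was 0.58 ± 0.12 (SE; limma adjusted p = 0.059, and 0.0412 at equal list length). The Knstrn promoter, of a spindle and kinetochore adaptor, had 15.1, 13.5 and 15.1 in mesenteric high libraries, against 8.26, 6.08 and 5.91 in axillary high libraries. Its centred log2 difference was 0.86 ± 0.15 (SE; limma adjusted p = 0.059, and 0.0288 at equal list length).

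The Aph1a promoter had folds of 20.7, 17.9 and 18.3 in mesenteric high libraries, against 11.3, 10.5 and 11.3 in axillary high libraries. Aph1a encodes a subunit of gamma-secretase, the protease that releases the active part of Notch. At equal length its adjusted p was 0.0394 (limma). Tusc2, a mitochondrial protein first described as a tumour suppressor candidate, had 15.4, 18.6 and 15.1 at its promoter in mesenteric high libraries, against 7.45, 8.51 and 9.5 in axillary high libraries. None of these groups overlapped. Uncentred fold was higher in mesenteric high libraries without overlap in 38.6% of all tested regions.

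Other regions called higher at equal length lay at Kif14, a mitotic kinesin, Psrc1, a spindle protein, and Prpf8 and Sf3b4, components of the spliceosome. Aprt, an enzyme of purine salvage, had mean folds of 13.9 ± 2.64 in mesenteric high libraries and 6.63 ± 0.985 in axillary high libraries (SD, n = 3 each), and a region 20921 bp outside Tuba1c, a tubulin gene, had 13.5 ± 1.21 and 6.66 ± 0.293. Of the lower ones, 3 of 8 lay at Nr4a1, and the rest at Zfp619, Idi1, Srrm2 and Zeb1 and outside Dad1.

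**Figure D4:**
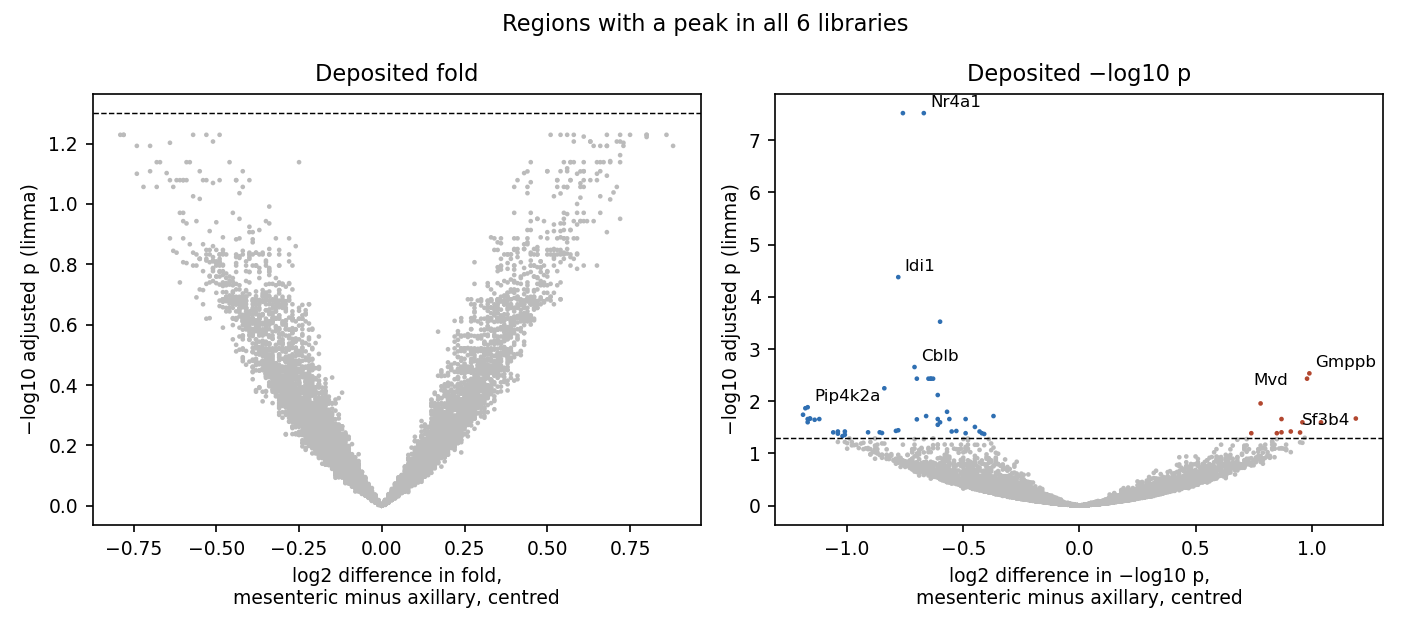
Each point is a region with a peak in all 6 libraries, placed by its centred log2 difference (mesenteric minus axillary) in fold on the left or in −log10 p on the right and by the −log10 of its adjusted p in limma. The dashed line is an adjusted p of 0.05. No region passes it for fold, and 12 higher and 48 lower regions pass it for −log10 p.

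The third measure, the deposited −log10 p, grows with the reads at a peak as well as with its fold. Relative to the library medians, 12 of 11150 regions (0.108%) were higher in mesenteric high libraries and 48 (0.43%) lower (limma, adjusted p under 0.05). All 12 were also called at equal list length, and 33 of the 48. Without centring the counts were 5565 higher and 6 lower. On reads recovered at the summits (limma with voom), 122 (1.09%) were higher and 239 (2.14%) lower, among them all 12 and 47 of the 48.

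The 12 higher regions included those at Aph1a, Fbh1 (a helicase gene, with the Ankrd16 promoter), Gmppb, Knstrn, Mvd, Nudc, Sarm1, Sf3b4, Tor2a and Tusc2. Gmppb makes the mannose donor of protein glycosylation, and a region 63 bp from its end had a −log10 p of 52.5, 50.5 and 62.5 in mesenteric high libraries, against 23.2, 19.5 and 15.1 in axillary high libraries. The centred log2 difference was 0.99 ± 0.18 (SE; limma adjusted p = 0.00292). Mvd had 46.5, 55.8 and 55.4 in mesenteric high libraries, against 15.3, 23.2 and 16.8 in axillary high libraries, a centred log2 difference of 0.98 ± 0.19 (SE; adjusted p = 0.00369, limma).

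In all 12 regions, which were chosen on these values, every mesenteric high value of fold and of −log10 p, uncentred, lay above every axillary high value, as it did in 38.6% of all tested regions for fold and in 56.2% for −log10 p. All 12 kept their direction in each of the 6 fits without a library, and none was called in all 6. The numbers called were 2 higher and 11 lower without mesenteric high library 1, 1 and 17 without mesenteric high library 2 and again without 3, 13 and 18 without axillary high library 1, 87 and 141 without axillary high library 2, and 2 and 5 without axillary high library 3.

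The lower regions had a median width of 806.5 bp, against 624 bp in the higher and 684 bp in all tested regions, and included Idi1, Cblb and Nr4a1. The Idi1 promoter, of the isomerase that follows mevalonate decarboxylase, had a −log10 p of 64.6, 58.9 and 63.6 in mesenteric high libraries, against 82.5, 57.5 and 82.2 in axillary high libraries. These groups overlapped through axillary high library 2, and the call rests on the values relative to the library median, with a centred log2 difference of −0.78 ± 0.12 (SE; limma adjusted p = 4.19e-05). Its fold was 13.9, 14 and 14.1 in mesenteric high libraries and 17.7, 15 and 17.9 in axillary high libraries, with no overlap.

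Cblb, a ubiquitin ligase that restrains TCR signalling without costimulation, had at its promoter a −log10 p of 65.2, 51.9 and 60.8 in mesenteric high libraries, against 72.3, 49.3 and 81.3 in axillary high libraries. The groups overlapped in these raw values, and the centred log2 difference was −0.71 ± 0.13 (SE; limma adjusted p = 0.00221).

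A region in Ubac2, 13537 bp from Gpr183, the oxysterol receptor that positions lymphocytes within lymphoid organs, had a −log10 p of 21.1, 17.5 and 17.8 in mesenteric high libraries, against 29.9, 24.8 and 18.9 in axillary high libraries. The highest mesenteric value exceeded the lowest axillary value. A region 174597 bp outside Myc, whose end was the nearest but too far for the gene lists, had a −log10 p of 16.4, 9.46 and 12 in mesenteric high libraries, against 21.2, 18.6 and 17.6 in axillary high libraries. Prmt5, an arginine methyltransferase, Pip4k2a, a phosphoinositide kinase, and Srrm2, a splicing protein of nuclear speckles, were further regions of lower −log10 p. Of the 48, also chosen on these values, 30 were lower without overlap between groups in raw fold, against 0.771% of all tested regions, and 15 in raw −log10 p, against 0.224%.

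**Figure D5:**
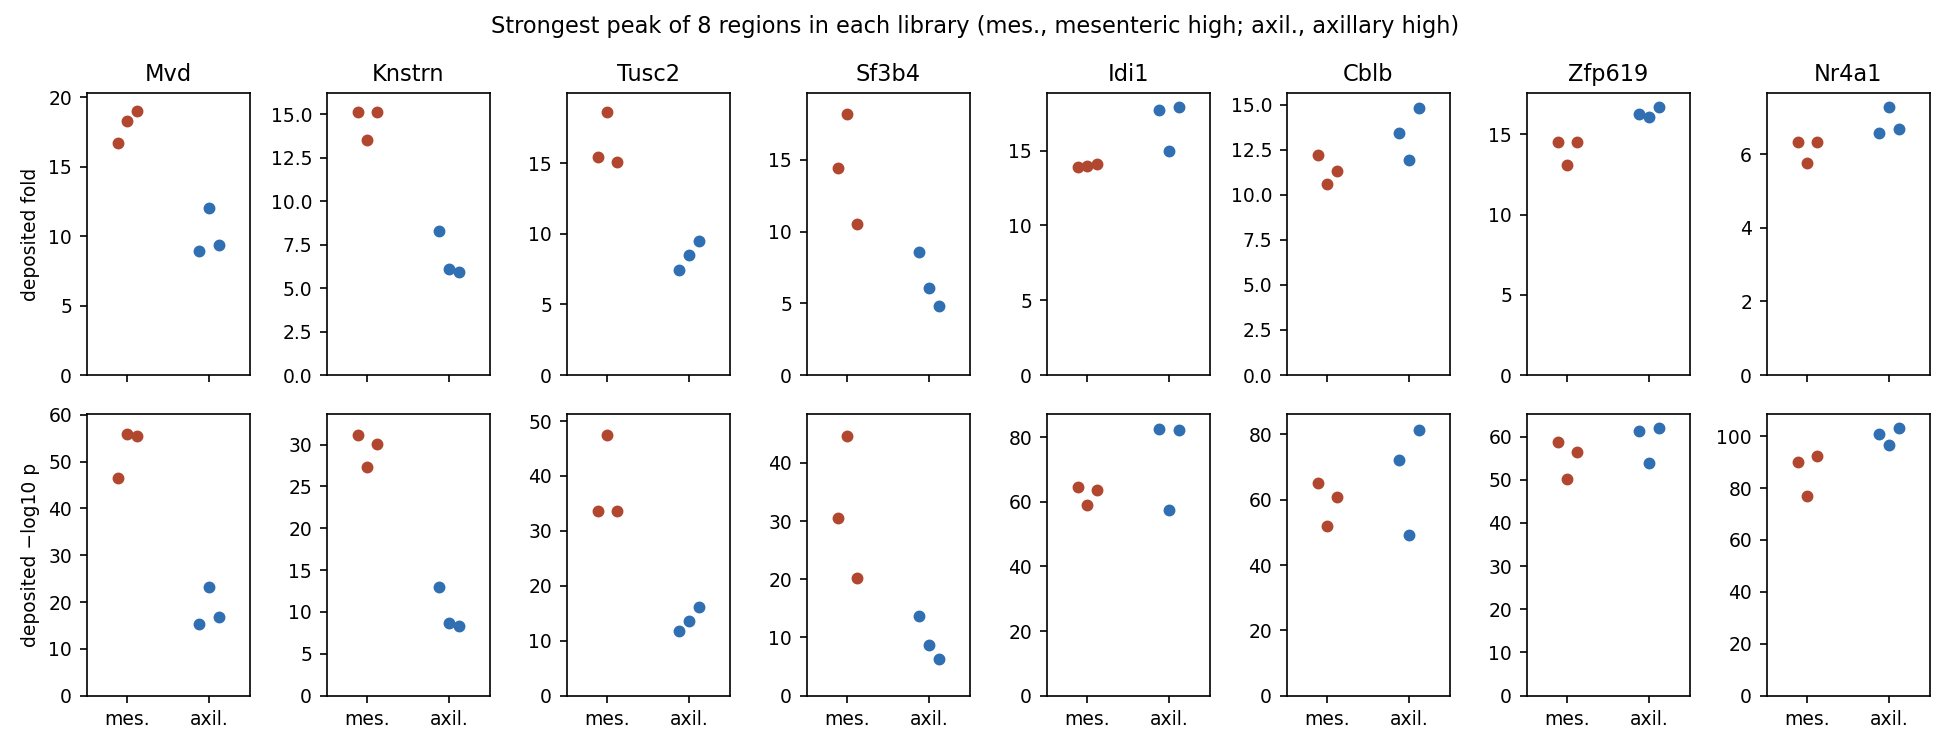
The deposited fold (top) and −log10 p (bottom) of the strongest peak are plotted for each library (points, mesenteric high left and axillary high right) in 8 regions, each panel with its own axis from 0. Mvd, Knstrn, Tusc2 and Sf3b4 are higher in every mesenteric high library, while at Idi1 and Cblb axillary high library 2 lies near or below the mesenteric values of −log10 p.

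Nr4a1, the gene behind the reporter, had weaker peaks relative to other regions in mesenteric high cells. Of its 7 regions, 5 had a peak in all 6 libraries, and 4 of these 5 were lower in −log10 p (limma), against 0.43% of all regions. The region over the promoter shown above (chr15:101266306-101268384) had a −log10 p of 90.1, 77.1 and 92.4 in mesenteric high libraries, against 101, 96.4 and 103 in axillary high libraries. The groups did not overlap, with a centred log2 difference of −0.76 ± 0.09 (SE; limma adjusted p = 3.03e-08). Its fold was 6.33, 5.76 and 6.34 in mesenteric high libraries and 6.57, 7.28 and 6.69 in axillary high libraries, a centred log2 difference of −0.42 ± 0.15 that did not pass (SE; limma adjusted p = 0.209).

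A region 7277 bp outside the gene (chr15:101246073-101247178) had a −log10 p of 103, 115 and 116 in mesenteric high libraries, against 118, 113 and 133 in axillary high libraries, and these overlapped. The region 163 bp from a gene end (chr15:101253681-101254450) had a fold of 4.35, 4.39 and 4.53 in mesenteric high libraries, against 4.68, 4.95 and 4.7 in axillary high libraries, with no overlap. The promoter region and the region 7277 bp outside were called for −log10 p in all 6 fits without a library, as were, of the other 46, the Idi1 promoter and that of Atg101, an autophagy gene beside Nr4a1.

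The whole neighbourhood of Nr4a1 was rich in reads. The block between 101210096 and 101339995 of chromosome 15 also holds Grasp and Atg101. The caller's local window around a peak was assumed to be 10000 bp, since its options are not given. Reads in this window stood 55.4, 54.1 and 53.6 times above the genome background in mesenteric high libraries. In axillary high libraries they stood 61, 63.4 and 55.9 times above it. The groups did not overlap (ratio of means 0.905, exact permutation p = 0.1, the smallest possible), while the median over all tested regions was 5.36. In low reporter libraries it was 30 ± 1.75 times in mesenteric and 38.8 ± 2.9 times in axillary cells (SD, n = 3 each). Of 21 regions in this block, 15 had a peak in all 6 libraries and 7 were lower in −log10 p. Because the caller divides by these local reads, folds here are low beside the number of reads, and the part of the local reads in the difference was not tested. The sources used here do not say whether the reporter adds copies of this locus, so reads of the gene and of any such copy cannot be told apart in any Nr4a1 value.

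Genes of retinoic acid response and gut homing, the programme imprinted in gut-draining nodes on activated T cells, gave no call in shared regions. Of 55 regions at 23 such genes, 14 had a peak in all 6 libraries, and 0 of these 14 passed for fold or for −log10 p, with a median centred log2 fold difference of −0.11 against −0.03 for all regions. Of the 55, 5 (9.09%) had a peak in all mesenteric high and no axillary high libraries as deposited, among them regions at Dhrs3, Rarg and Nrip1, and 1 did so at equal length. The region 12642 bp outside Ccr9, the chemokine receptor for homing to the small intestine, had folds of 11, 10.9 and 8.23 in mesenteric high libraries, against 11.2, 8.27 and 9.11 in axillary high libraries, and the groups overlapped. The region 255 bp outside Itga4, which encodes the alpha chain of the gut homing integrin, had 7.85, 7.06 and 7.25 in mesenteric high libraries and 5.59, 5.3 and 6.45 in axillary high libraries, a centred log2 difference of 0.09 ± 0.16 (SE; limma adjusted p = 0.82). Rara, a retinoic acid receptor, had 8.71, 8.62 and 9.45 in mesenteric high libraries and 6.76, 6.67 and 6.84 in axillary high libraries. Its raw values were higher without overlap, as in 38.6% of all tested regions, and the centred log2 difference was 0.13 ± 0.16 (SE; limma adjusted p = 0.726).

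The markers of naive CD4 T cells likewise gave no call in shared regions, while 5 of their 70 regions (7.14%), at Cd28, Cd2, Lef1, Cd4 and Cd3g, had a peak in all mesenteric high and no axillary high libraries. Of these, the Cd28 and Cd3g regions given above did so at equal length too. Of 24 regions tested at the 14 identity genes, 0 passed for fold or −log10 p, and the median centred log2 fold difference was −0.10. At Ccr7, the receptor for entry into lymph nodes, a region 8170 bp from the gene had folds of 13.5, 11.3 and 10.3 in mesenteric high libraries, against 12.4, 10.8 and 9.96 in axillary high libraries, which overlapped. At Il7r, the receptor of the survival cytokine IL-7, a region 3617 bp from a gene end had 9.47, 7.7 and 8.16 in mesenteric high libraries and 5.72, 6.95 and 6.9 in axillary high libraries, with a centred log2 difference of 0.10 (limma adjusted p = 0.803).

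Across the other lists, calls for −log10 p were few and all lower. TCR induced genes had 4 of 75 tested regions lower, all 4 at Nr4a1. TCR brakes had 1 of 70 (Cblb) and lymph node homing and egress 1 of 34 (Gpr183). TGF-beta pathway, the factors of the AP-1, NFAT, NF-kB and IRF families, T helper factors and cytokines, regulatory T cell, naive quiescence, cytokine receptor, interferon, effector and memory and housekeeping lists had 0 in either direction. The aryl hydrocarbon receptor list had 6 regions tested and 0 called. The 7 marker lists of other cell types had 1 to 3 regions tested each and 0 called.

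The last comparison asks whether the organ difference of high reporter cells departs from that of low reporter cells. Low reporter libraries also had more peaks in mesenteric nodes, 17346 ± 144 in mesenteric low libraries and 14633 ± 399 in axillary low libraries (SD, n = 3 each, exact permutation p = 0.1). The difference of 2713 stands beside 7586 in high reporter cells, and the difference between them was not tested. In low reporter cells 391 of 23390 regions (1.67%) had a peak in all mesenteric and no axillary libraries and 51 (0.218%) the reverse. Of the 1623 high reporter regions 63 (3.88%) did so in low reporter cells as well, which is 16.1% of the 391. At equal list length the low reporter counts turned round, to 135 (0.646%) and 171 (0.818%), and 1 region was shared, which is 0.602% of the 166 high reporter regions and 0.741% of the 135.

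Region by region, 0 of 9278 regions with a peak in all 12 libraries passed a test of the difference between reporter levels in fold (0% higher and 0% lower, limma interaction, smallest adjusted p = 0.144, 742 at an unadjusted p under 0.05). On recovered reads 10 (0.108%) were lower and 0 higher (limma with voom), among them 2 Nr4a1 regions. The log2 fold differences of high and of low reporter cells had a Pearson r of 0.272 across these 9278 regions, which are not independent replicates. At Mvd the centred log2 fold difference was 0.58 in high and 0.10 in low reporter cells, at Idi1 −0.53 and −0.22, and at Cblb −0.49 and −0.21. The interaction did not pass at Mvd (limma adjusted p = 0.478), Idi1 (0.582) or Cblb (0.703).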

How the data were processed

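Naive CD4 T cells of 6 groups were profiled by ATAC-seq, and 18 deposited peak lists on mm10 were used. Trimmomatic 0.33, Bowtie2, bedtools and MACS were used upstream, per the submitters' processing notes. Further versions, the options of the caller, and any shifting or removal of reads are not given in those sources. The deposited fold is the authors' ratio of summit reads to local background, and the deposited −log10 p and q-value columns are the caller's own per peak and library. Peaks on chromosomes 1 to 19 and X were kept (314425, with 404 set aside) and merged with a minimum overlap of 1 bp. Each region took the strongest peak of a library. Genes and promoters came from RefSeq tables of GRCm38.p6, and a region was named after the gene with the nearest end and counted in a gene list where that end was within 100000 bp.

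Fold and −log10 p were tested on a log2 scale with no pseudocount, centred per library, by limma 3.58.1 (R 4.3.3) with Benjamini-Hochberg adjustment at 0.05 over all regions. Where fold and p matched a whole number of reads (99.3% of peaks, within 0.002), these reads gave depth, thinning (20 draws, caller threshold 5) and a voom fit, which is a use of reads recovered from the authors' values and not of deposited counts. Reads of replicates differed by less than counting noise within both groups (chi-square per region 0.524 to 0.597). Pairs between groups had 0.705 to 0.826, which is also less than counting noise. Only regions with a peak in all 6 libraries entered, and the effect of this choice on the values was not tested. No pair of replicates stood apart, and all libraries were kept. Regions were named by rule: the 10 strongest present in 3 against 0 libraries in both ways of counting, the 10 of smallest adjusted p per direction for fold and 5 for −log10 p, gene list members called or 3 against 0, and all of Nr4a1 and the CD4 identity genes. The gut homing regions and other called genes were named after their values were seen, and a few called regions are not reported here. The members and lists were chosen with earlier results of these data known.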

Additional observations from a re-analysis of the deposited data

Results flagged for a closer look

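On reads recovered at the peak summits, 10 regions differed between the mesenteric minus axillary difference of high reporter cells and that of low reporter cells (limma with voom, interaction, adjusted p under 0.05), all lower in high reporter cells. The log2 differences between levels were −0.96 at Larp1b, −0.87 at Metap1, −0.60 at Ripk2, −1.07 at Ski, −1.23 at Htatip2, −1.20 at Nudt7, −0.89 at Mapk8 and −0.99 at Yipf6, and at Nr4a1 −0.45 in the region 163 bp from a gene end and −0.35 in that over the promoter. At Larp1b, an RNA-binding protein gene, summit reads were 54, 60 and 59 in mesenteric high and 51, 46 and 41 in axillary high libraries, and 79, 71 and 85 in mesenteric low and 40, 51 and 33 in axillary low libraries. At Ski, a repressor of TGF-beta signalling, they were 34, 35 and 35 in mesenteric high and 29, 23 and 21 in axillary high libraries, and 49, 52 and 48 in mesenteric low and 21, 22 and 20 in axillary low libraries. These reads are not scaled for depth. The same regions did not pass the interaction on fold (limma adjusted p 0.338 to 0.782).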

How the results depend on the processing

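The difference in peaks per library was 7246 to 7806 without a library, 6081 at a −log10 p of at least 10, 4586 at equal depth and 7145 with axillary high library 2 alone, which was chosen after the data were seen because of its fragment estimate. Fits with that library alone take their spread from the mesenteric high libraries and assume that it varies like them. The share of summits near gene ends (−8.85 percentage points) turned to 0.943 at equal list length and was −9.22 to −8.39 without a library, −5.94 at equal depth and −7.29 within 5000 bp.

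Regions with a peak in all mesenteric high and no axillary high libraries numbered 166 at equal list length, 786 at equal depth, 3771 with axillary high library 2 alone and 2163 to 2500 without a library, and the reverse 137, 19, 336 and 8 to 25. With summits within 150 bp the reverse count was 7. Fewer libraries to agree raise these counts by construction.

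For fold, the calls higher and lower were 2497 and 4 without centring, 26 and 8 at equal list length, 22 and 13 at a −log10 p of at least 10, 23 and 3 with axillary high library 2 alone, 122 and 239 on recovered reads, and 0 to 46 and 0 to 19 without a library. For −log10 p they were 5565 and 6 without centring, 20 and 81 at a −log10 p of at least 10, 20 and 8 with axillary high library 2 alone, and 1 to 87 and 5 to 141 without a library. With a peak needed in 2 of 3 libraries of each group, 25 were lower. On recovered reads with axillary high library 2 alone, 0 were higher and 21 lower. The interaction gave 10 lower on recovered reads and 0 in every other fit on fold. Apart from the construction named, the cause was not tested.

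Without centring, the log2 difference in −log10 p turned positive at Zbtb5 (0.06), Phtf2 (0.02), Eif2ak3 (0.12), Kbtbd3 (0.11), Sertad2 (0.09), Sel1l (0.18), Kctd9 (0.06), Cggbp1 (0.13) and the Nr4a1 region 3339 bp outside the gene (0.10, and 0.02 in fold).

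Deviations in fold did not follow replicate number (correlations −0.00554 to 0.00308 over all pairs of a mesenteric and an axillary high library). Because replicates differed by less than counting noise, these correlations cannot show whether libraries shared an animal. With a replicate block, 0 and 0 regions were called for fold and 18 and 64 for −log10 p. Counts of presence changed with depth and with list length, as given above.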

Other observations

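The direction of the fold difference varied with the width of the region. With the 11150 shared regions divided by width into 4 groups of nearly equal number, from narrow to wide, the median centred log2 difference in fold was 0.05, 0.02, −0.03 and −0.10, and on recovered reads with axillary high library 2 alone it was −0.01, 0.03, 0.01 and −0.04. The widths, like the fragment estimate taken from the narrowest peak, differed between libraries, and their part in the differences was not tested. Across the 5928 regions on promoter windows, the GC content of the window had a Pearson r of −0.0858 with the fold difference and 0.0221 with the difference in recovered reads, a description across promoters of the same libraries. The median GC content was 59.5% in the windows of regions higher in −log10 p, 61.3% in those lower and 62.7% in all tested ones.

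Sequence letters other than the CCAAT box were also counted in the promoter windows, on both strands. The ETS core CCGGAAG was present in 6 of 17 windows of regions higher in fold at equal list length. It was present in 1 of 8 windows of regions higher in −log10 p and in 2 of 21 of those lower. Over the 5928 windows of regions tested on the full lists the share was 22.1%, and it was not computed for the regions tested at equal list length. The GC box GGGCGG was present in 7 of 17, 5 of 8 and 14 of 21 of the same windows, against 73.8% of the 5928 windows.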
